A study of Mus musculus with 2 samples.

Results

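Mesenchymal transition factors, with vimentin and N-cadherin, were measured in the embryonic mouse lung. The panel holds the transcription factors Snai1, Snai2, Twist1, Twist2, Zeb1, Zeb2, Prrx1 and Prrx2, with the intermediate filament gene Vim and the cadherin gene Cdh2. These 10 genes of 43346 mouse genes in the tables were chosen by symbol, and all 10 were matched by gene identifier. The measurements came from total RNA-seq of RNA over 200 nt in size, from the lung of B6NCrl mouse embryos at 14.5 days of development. There was 1 group, with no treatment or mutation named, and it held 2 libraries made from 10.0 ng of RNA each, from lungs collected on July 15 (replicate 1) and July 17 (replicate 2). The labels call each sample 1 lung of 1 pup, but also give pooled sexes, and both libraries carry the same donor label, so the number of animals behind each is uncertain. No second stage, tissue or treatment was compared, and differences between the libraries are differences between these samples only.

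The factors are best known as drivers of epithelial-mesenchymal transition, the change in which epithelial cells lose their junctions and become motile. Snail and Zeb proteins are zinc-finger repressors that bind E-boxes, short sites such as CACCTG, in epithelial genes including Cdh1, the gene of E-cadherin. Twist proteins are basic helix-loop-helix factors that pair with E proteins, and Prrx proteins are homeodomain factors of embryonic mesenchyme. In the embryonic lung a branching epithelium grows into mesenchyme that will form smooth muscle, fibroblasts and vessel walls, and many of these genes are ordinary genes of that mesenchyme.

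The promoters of 4 of the genes are shown because they include the highest gene of the panel, Vim, and the lowest, Twist1, beside the relative of Twist1 that was higher, Twist2, and Snai1, a gene that encodes an E-box repressor. Each is the RefSeq window on GRCm38.p6 from 250 bases before to 50 bases after the start site, on the + strand, written 5′ to 3′. The windows lie at chr2:13574061-13574360 (Vim), chr12:33957421-33957720 (Twist1), chr1:91801211-91801510 (Twist2) and chr2:167537945-167538244 (Snai1). Capitals mark the TATA motif (TATAAA), the CCAAT motif and the E-box that reads CACCTG, each searched on both strands, so that a motif on the other strand appears as its reverse complement.
Vim: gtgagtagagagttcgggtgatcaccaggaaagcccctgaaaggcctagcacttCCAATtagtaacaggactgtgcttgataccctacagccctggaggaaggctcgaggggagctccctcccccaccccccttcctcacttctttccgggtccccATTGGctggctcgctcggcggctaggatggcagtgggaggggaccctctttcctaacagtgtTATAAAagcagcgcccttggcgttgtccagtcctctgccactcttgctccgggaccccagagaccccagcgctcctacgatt
Twist1: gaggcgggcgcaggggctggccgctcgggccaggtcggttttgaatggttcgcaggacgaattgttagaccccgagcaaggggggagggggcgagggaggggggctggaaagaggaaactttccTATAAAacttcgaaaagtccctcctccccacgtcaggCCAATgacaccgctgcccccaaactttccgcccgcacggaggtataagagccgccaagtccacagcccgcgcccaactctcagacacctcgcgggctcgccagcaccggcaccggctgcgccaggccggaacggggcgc
Twist2: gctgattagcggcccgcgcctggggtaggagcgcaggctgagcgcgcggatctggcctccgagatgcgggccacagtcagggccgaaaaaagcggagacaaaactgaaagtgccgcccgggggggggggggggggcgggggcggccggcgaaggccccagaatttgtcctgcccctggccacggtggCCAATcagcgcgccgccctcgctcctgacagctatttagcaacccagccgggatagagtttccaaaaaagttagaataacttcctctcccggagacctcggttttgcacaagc
Snai1: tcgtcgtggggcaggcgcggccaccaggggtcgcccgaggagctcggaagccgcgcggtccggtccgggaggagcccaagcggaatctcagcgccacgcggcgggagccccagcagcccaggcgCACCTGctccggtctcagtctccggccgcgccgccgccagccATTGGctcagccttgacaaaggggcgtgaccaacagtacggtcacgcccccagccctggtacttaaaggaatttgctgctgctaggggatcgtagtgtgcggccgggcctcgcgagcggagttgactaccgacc

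The TATA motif, the core of the TATA box, began 32 bases before the start of Vim and 126 bases before that of Twist1, and was not in the Twist2 or Snai1 window. Of all 32851 promoter windows, 13.6% held it. The CCAAT motif occurred in all 4 printed windows, against 37.4% of all windows. It began 94 and 196 bases before the start in Vim, 89 in Twist1, 63 in Twist2 and 84 in Snai1. The Prrx1 and Prrx2 windows, which are not printed, held no CCAAT motif. Nor did the Zeb2 windows, other than the one from 45117393 to 45117692 on chromosome 2. Snai1 held the only CACCTG E-box among the 10 windows found for 7 of the genes, 126 bases before its start. That E-box was in 20.2% of all windows. The GC box, GGGCGG (35.7% of all windows) occurred 4 times in Twist2 and 1 time in Twist1. It also occurred 2 times in Prrx2 and 1 time in each Zeb2 window other than that from 45117393 to 45117692. The Vim, Snai1 and Prrx1 windows did not hold it. The Snai1 window had 70.0% GC and 34 CpG, Twist1 66.0% and 27, Twist2 64.7% and 25, and Vim 59.3% and 11. The medians over all windows were 52.7% and 7. Of the windows not printed, Prrx2 had 70.3% and 28, and Prrx1 47.7% and 6. Those of Zeb2 had 49.3% to 60.7% GC and 8 to 19 CpG. These are matches of letters and were not measured as binding sites. Snai2, Zeb1 and Cdh2 were named only and no window of theirs was used.

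Levels are in TPM, a relative measure scaled to a fixed total, which corrects for transcript length and so allows genes to be compared. Of the 10 genes, 9 (90.0%) were detected, taken as 1 TPM or more in both libraries, against 58.8% of protein-coding genes (12637 of 21474). The median over the 10 genes came to 23.7 and 24.4 TPM in replicates 1 and 2, against 4.09 and 4.11 TPM over protein-coding genes. Behind these values lay 31940637 counts of mouse genes in replicate 1 and 33167255 in replicate 2. In bulk lung, fewer cells expressing a gene and less RNA of it per cell cannot be told apart.

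The snail genes were the highest of the factors. Snai1 (ENSMUSG00000042821, GRCm38 chromosome 2, 167538195 to 167542814) stood at 119.67 TPM in the first library and 130.69 TPM in the second, a mean of 125 ± 7.79 TPM (SD, n = 2), higher than 94.7% of protein-coding genes. Snai2 (ENSMUSG00000022676, chromosome 16, 14705852 to 14709385), which encodes Slug, had 165.9 and 191.23 TPM, a mean of 179 ± 17.9 TPM (SD, n = 2). Snai2 exceeded Snai1 in both libraries, and the ranges of the genes did not overlap. Snai1 made up 41.9% and 40.6% of the summed TPM of the pair (41.3% ± 0.925, SD, n = 2). Each is listed with 1 transcript, so neither level depends on how reads were divided among isoforms.

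The twist genes were far apart. Twist1 (ENSMUSG00000035799, chromosome 12, 33957671 to 33959829) was the 1 gene of the panel under the detection threshold, at 0.71 TPM (24 counts) in the first library and 0.29 TPM (10 counts) in the second. Twist2 (ENSMUSG00000007805, chromosome 1, 91801461 to 91848028), also known as Dermo1, had 10.07 and 10.4 TPM, a mean of 10.2 ± 0.233 TPM (SD, n = 2). Twist2 was thus 14.2-fold and 35.9-fold above Twist1. By counts, Twist1 held 7.79% of the pair in replicate 1 (95% exact Clopper-Pearson interval 5.06% to 11.4%, 24 of 308) and 3.31% in replicate 2 (1.60% to 6.01%, 10 of 302). The intervals overlap and cover counting error only. Both libraries placed Twist1 far below Twist2, while its exact level rests on few counts.

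The zeb genes, which encode zinc-finger homeodomain repressors, were also unequal. Zeb2 (ENSMUSG00000026872, chromosome 2, 44983632 to 45117395) reached 74.2 TPM in the first library and 72.67 TPM in the second, a mean of 73.4 ± 1.08 TPM (SD, n = 2). Zeb1 (ENSMUSG00000024238, chromosome 18, 5591860 to 5775467) had 13.2 and 13.27 TPM, a mean of 13.2 ± 0.0495 TPM (SD, n = 2). Zeb2 was 5.62-fold and 5.48-fold above Zeb1, a ratio that hardly moved between the libraries but depends on the length used. Zeb1 held 15.1% and 15.4% of the TPM of the pair. With all counts of each gene divided by the length of its leading coding transcript, it held 10.9% and 11.6%.

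The paired-related homeobox genes were in the lower part of the panel, though Prrx1 was above 53.7% and Prrx2 above 63.0% of protein-coding genes. Prrx1 (ENSMUSG00000026586, chromosome 1, 163245119 to 163313710) had 6.04 and 6.20 TPM, a mean of 6.12 ± 0.113 TPM (SD, n = 2). Prrx2 (ENSMUSG00000039476, chromosome 2, 30834972 to 30881251) had 12.43 and 12.95 TPM, a mean of 12.7 ± 0.368 TPM (SD, n = 2). Prrx1 therefore held 32.7% and 32.4% of the TPM of the pair. Prrx1 nevertheless took more of the reads, with 639 counts against 303 in replicate 1 and 531 against 319 in replicate 2. On counts, which are not corrected for length, it was the larger member, at 67.8% and 62.5% of the pair.

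Vim (ENSMUSG00000026728, chromosome 2, 13573927 to 13582826), which encodes the filament protein of mesenchymal cells, was the highest gene of the panel. Its level was 682.47 TPM in the first library and 694.68 TPM in the second, a mean of 689 ± 8.63 TPM (SD, n = 2), above 99.3% of protein-coding genes. Cdh2 (ENSMUSG00000024304, chromosome 18, 16588877 to 16809246), which encodes N-cadherin, had 34.19 and 35.45 TPM, a mean of 34.8 ± 0.891 TPM (SD, n = 2). Cdh1, the epithelial cadherin, had 70.3 and 68.74 TPM. Cdh2 made up 32.7% and 34.0% of the TPM of these cadherins together (33.4% ± 0.922, SD, n = 2).

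The order of mean TPM was Vim, Snai2, Snai1, Zeb2, Cdh2, Zeb1, Prrx2, Twist2, Prrx1 and Twist1, and the ranges of neighbours did not overlap in the 2 libraries. Vim stood 3.86-fold above Snai2 and Prrx1 stood 12.2-fold above Twist1, the widest steps in the order on deposited TPM. The narrowest step was from Zeb1 to Prrx2, 1.04-fold. That step depends on the length used, because the gene TPM averages over listed transcripts that include short non-coding ones. With all counts of a gene divided by the length of its leading coding transcript, Zeb1 fell to 8.78 TPM, 0.846 of Prrx2 at 10.4 TPM, and Prrx2 and Twist2 (10.5 TPM) overlapped. On that scale Vim was at 438 TPM, still the highest but 2.45-fold above Snai2, and the step from Cdh2 to Zeb1 was wider, at 4.31-fold.

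**Figure D1:**
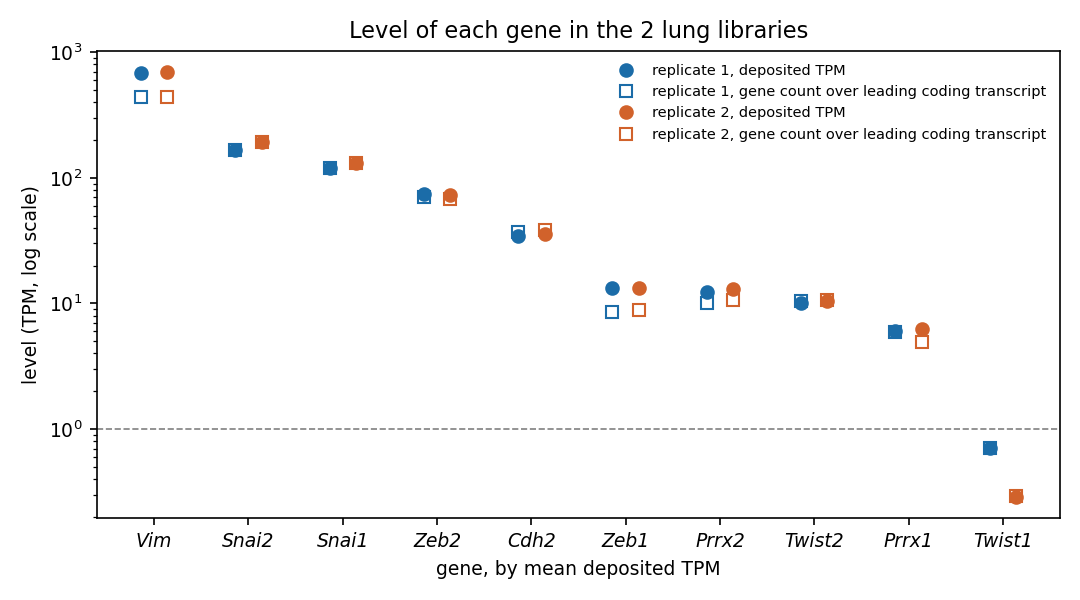
Level of each of the 10 genes in TPM on a log axis, by library, as deposited (filled circles) and with the gene's counts over the length of its leading coding transcript (open squares); the dashed line is the detection threshold. Vim is highest at a mean of 689 TPM, Twist1 lies below the detection threshold of 1 TPM and the squares of Vim and Zeb1 lie below their circles.

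The libraries were compared over 14870 genes with a mean TPM of 1 or more, by an exact two-sided binomial test on scaled counts with Benjamini-Hochberg adjustment. That test covers counting error only. A gene was called where its adjusted p was under 0.05 and its change at least 2-fold, which held for 169 genes (1.14%). Of the 9 panel genes tested, 0 were called, while 5 had an unadjusted p under 0.05. With edgeR's exact test, which uses the spread between the libraries over all genes, 0 of the 9 had an unadjusted p under 0.05. The share of all genes with an unadjusted p under 0.05 was not counted for either test, so neither count can be read as a trait of the panel. The spread that edgeR used was estimated from the same 2 libraries, treated as replicates, so its result is no independent check. By edgeR's adjusted p at any fold 0 of the 9 passed, against 116 of all genes tested (0.780%). At 2-fold or more, 106 genes in all were called by edgeR. At any fold, 4 of the 9 had an adjusted p under 0.05 by the binomial test, against 22.5% of all genes tested. By direction, 1 was higher in replicate 2 (11.0% of all genes) and 3 were lower (11.5%). The 4 of 9 make 44.4% of the panel. Vim, with 20472 and 20527 counts, passed at a log2 ratio of −0.06, and Prrx1, with 639 and 531 counts, at −0.33. Snai1, with 4062 and 4453 counts, did not pass at 0.07. The part of count depth in this share was not tested. Over all genes tested the median size of the log2 ratio was 0.0975.

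Snai2 was the gene that was higher, 1.11-fold, with a log2 ratio of 0.15 (95% interval 0.10 to 0.19, adjusted p = 1.06e-08 by the exact binomial test). Prrx1 was 1.26-fold lower in replicate 2, at −0.33 (−0.50 to −0.16, adjusted p = 0.00116). Zeb2 was 1.07-fold lower, at −0.10 (−0.14 to −0.05, adjusted p = 0.000268). Vim was at −0.06 (−0.09 to −0.03, adjusted p = 0.000535). None of them passed by edgeR's exact test, but its spread came from the same 2 libraries, so it could not check these differences independently. Each of these 4 genes changed by under 1.5-fold. Of these 4, only Snai2 kept its direction under every scaling tried: relative to spike-in RNA added to the samples, Zeb2 was at 0.24, Vim at 0.28 and Prrx1 at 0.01, the last with an adjusted p of 0.905 by the exact binomial test, and by deposited TPM Vim was at 0.03 and Prrx1 at 0.04. Snai1 (0.07), Twist2 (−0.02), Zeb1 (−0.01), Prrx2 (0.01) and Cdh2 (−0.01) did not pass at any fold. Twist1 was below the level needed for the test; with no such filter its log2 ratio was −1.28 (−2.55 to −0.21), with an adjusted p of 0.0873 by the exact binomial test. On the spike-in scale the log2 ratios were higher by 0.34, as was the median of all genes tested.

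**Figure D2:**
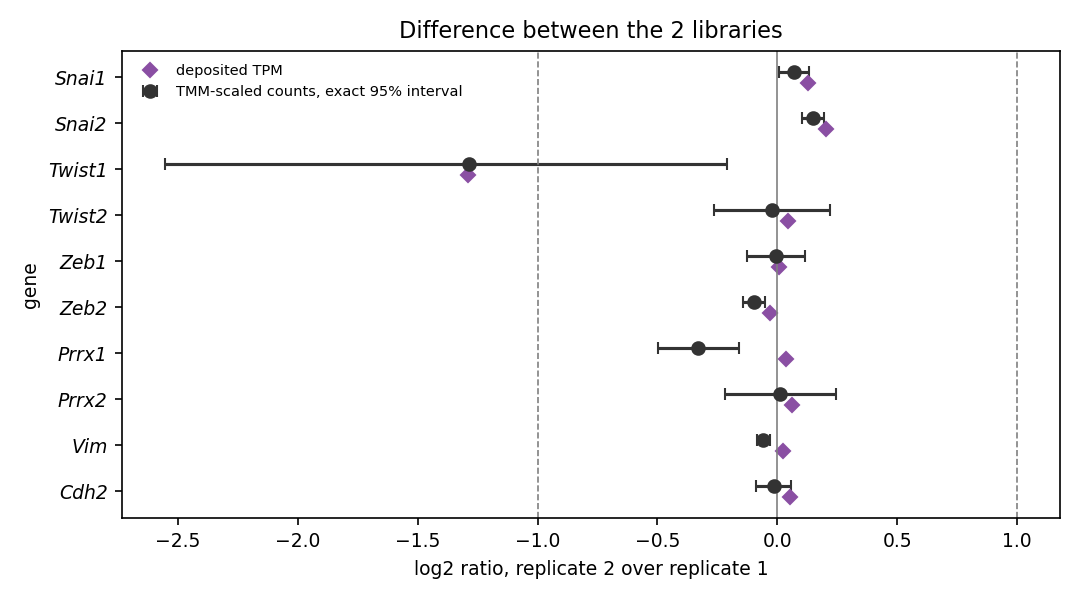
Log2 ratio of replicate 2 over replicate 1 for each of the 10 genes, with 95% intervals from the exact binomial test that cover counting error only (circles), and the log2 ratio of the deposited TPM (diamonds); dashed lines mark 2-fold. Prrx1 at −0.33 lies farthest from 0 of the genes tested, its diamond lies at 0.04, and the untested Twist1 has the widest interval.

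The libraries differed in another respect. The summed TPM of 11 heart muscle markers was 689 in replicate 1 and 129 in replicate 2, and all 10 of those tested were called lower, with Myl7 (269.87 and 17.29 TPM) and Actc1 (190.85 and 85.28 TPM) the highest. The others called were Tnni1, Tnnt2, Myl4, Myh6, Csrp3, Actn2, Mybpc3 and Nppa, which was listed at 0 in replicate 2. The marker not tested, Ryr2, was below the level needed for the test and differed little, at 0.86 and 0.75 TPM (321 and 282 counts). Cdh2, which heart muscle also expresses, was 34.19 and 35.45 TPM across the same libraries. Skeletal muscle markers gave 3 of 4 tested called lower (Myl1, Ckm and Acta1), and the fourth, Mylpf, had 6.26 and 8.72 TPM. Of the 8 listed, 2 were detected. Myod1 (0 and 3 counts), Myog (0 and 1), Myf5 (3 and 10) and Pax7 (0 and 0) were below the level needed for the test. Macrophage markers, led by Lyz2 and C1qb, summed to 206 and 177 TPM, with 4 of 7 lower at any fold, 0 called and a median log2 ratio of −0.22. Of 6 mesothelial markers 4 were lower at any fold (Upk3b, Lrrn4, Msln and Bnc1), with a median log2 ratio of −0.36, and Msln was called (2.98 and 1.24 TPM). The markers of the labelled tissue were present, with Sftpc at 2126.93 and 2183.57 TPM and Nkx2-1 at 74.43 and 76.85 TPM. The part of these cell types in the levels of the panel was not tested. Among all genes tested, 11.5% were lower at any fold and 1.14% were called in either direction.

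Most of the level of several genes came from more than 1 listed transcript. The deposited tables divide a gene's reads among its transcripts by estimate, and the share of a transcript below is its percent of the gene's TPM. In percentage points, the largest move among the listed transcripts was in Prrx1. Its non-coding transcript Prrx1-205 (1335 nt) went from 12.63% to 34.27% of the gene's TPM, from 21.02 ± 12.28 to 58.79 ± 10.86 counts (posterior SD), a difference of 1.93 combined errors. Measured in such errors, the scaled counts of transcripts of the genes with several differed most in Zeb2-204 (3.29% and 4.59% of Zeb2, 2.89 errors), Zeb1-206 and Prrx1-204 (27.4% and 21.11% of Prrx1), the latter pair both at −2.57 errors. The coding share of Prrx1 accordingly was 83.9% and 60.8%. The mean length listed for the gene was 4846.64 nt in replicate 1 and 3924.89 nt in replicate 2. The counts of Prrx1 (log2 ratio −0.33) and its TPM (0.04) part largely through that length, by which TPM divides. Length is not the whole gap: for Snai1, with 1 listed transcript, the TPM log2 ratio also exceeded the count ratio, by 0.06.

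In Vim, the retained-intron transcript Vim-203 (535 nt) was given 37.16% and 38.61% of the TPM, but 12.0% and 12.8% of the gene's counts. The coding transcripts Vim-201 (466 codons) at 31.84% and 30.56% and Vim-206 (427 codons) at 30.26% and 29.81% shared most of the rest. Zeb1 was led by Zeb1-201 (1117 codons), at 53.9% and 55.32%. Zeb1-206, a transcript marked for nonsense-mediated decay, went from 13.25% to 1.49% of the gene, or from 43.52 ± 11.51 to 4.93 ± 7.15 counts (posterior SD). Zeb2 was led by Zeb2-201 (1259 codons), at 33.86% and 36.26%, and the retained-intron transcript Zeb2-209 held 15.46% and 15.57%. Cdh2 was led in both libraries by Cdh2-202 (849 codons), which starts inside the gene, at 54.72% and 59.32%, over the longer Cdh2-201 (906 codons) at 35.38% and 32.18%. Prrx2-201 held 68.95% and 68.38% of Prrx2, and Twist2-201 held 97.0% and 97.81% of Twist2.

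**Figure D3:**
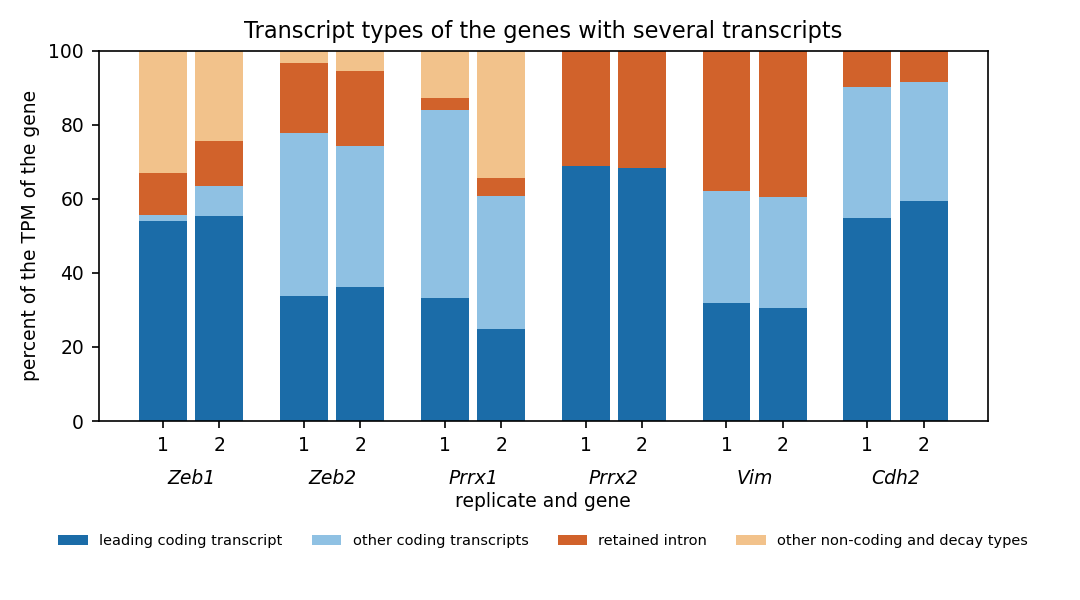
Share of each gene's TPM, in percent, given to its leading coding, other coding, retained-intron and other transcripts in each library (bars 1 and 2), for the 6 genes with several transcripts other than Twist2. The non-coding share of Prrx1 is larger in replicate 2, and Vim carries a retained-intron transcript of 37.16% and 38.61% of its TPM.

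Other genes are listed over the same stretches of the genome. Zeb2os, on the opposite strand of Zeb2, had 45.24 and 56.85 counts against 8118.76 and 7922.15 for Zeb2. Gm29100, antisense to Twist2, had 30.82 and 30.64 counts against 284.18 and 292.36. Gm10125, opposite Zeb1, had 28.48 and 33.89 counts, and Gm26523, on the strand of Prrx1, had 49 and 37. Whether strand was used in counting is not given in the labels or file headers, so reads of overlapping genes may not be told apart. Every other gene overlapping a member had at most 21 counts.

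The genes these factors are known to repress or accompany were also expressed. Of 23 epithelial genes, including junction genes and the Grhl and Esrp factors, 22 were detected and 0 were called; at any fold 2 were higher and 3 lower, with a median log2 ratio of −0.02. The highest were Epcam (225.57 and 226.34 TPM), Cldn6 (156.16 and 168.62 TPM) and Krt8 (163.57 and 160.93 TPM). Of 19 mesenchymal genes, 18 were detected and 0 were called, with 2 higher and 7 lower at any fold and a median of −0.04. Col3a1 (1222.31 and 1258.09 TPM), Sparc (1113.94 and 1130.09 TPM) and Col1a1 (833.33 and 835.2 TPM) led them, all above Vim. Beside these counts, 11.0% of all genes tested were higher and 11.5% lower at any fold, and 1.14% were called. Of protein-coding genes, 58.8% were detected. Epithelial and mesenchymal genes were thus present in the same tissue RNA, and which cells held which was not measured.

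The partners of the factors were present. Of 9 helix-loop-helix genes, 7 were detected, with 1 higher and 2 lower at any fold; Id3 (374.62 and 378.48 TPM) and Id2 (371.56 and 357.21 TPM), inhibitors of such factors, stood above the E-protein gene Tcf3 (117.61 and 143.27 TPM). All 15 corepressor genes were detected, with 5 higher and 1 lower at any fold, led by Ctbp1 (247.54 and 268.88 TPM), Hdac2 (203.56 and 205.71 TPM) and Hdac1 (193.23 and 196.32 TPM). All 16 inducers and Smad genes were detected, with 2 higher and 1 lower, led by Hif1a (88.38 and 90.18 TPM), Wnt2 (77.14 and 82.06 TPM) and Tgfb2 (65.08 and 69.02 TPM). None of these genes was called, against 1.14% of all genes tested. At any fold 11.0% of all genes tested were higher and 11.5% lower, and 58.8% of protein-coding genes were detected.

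**Figure D4:**
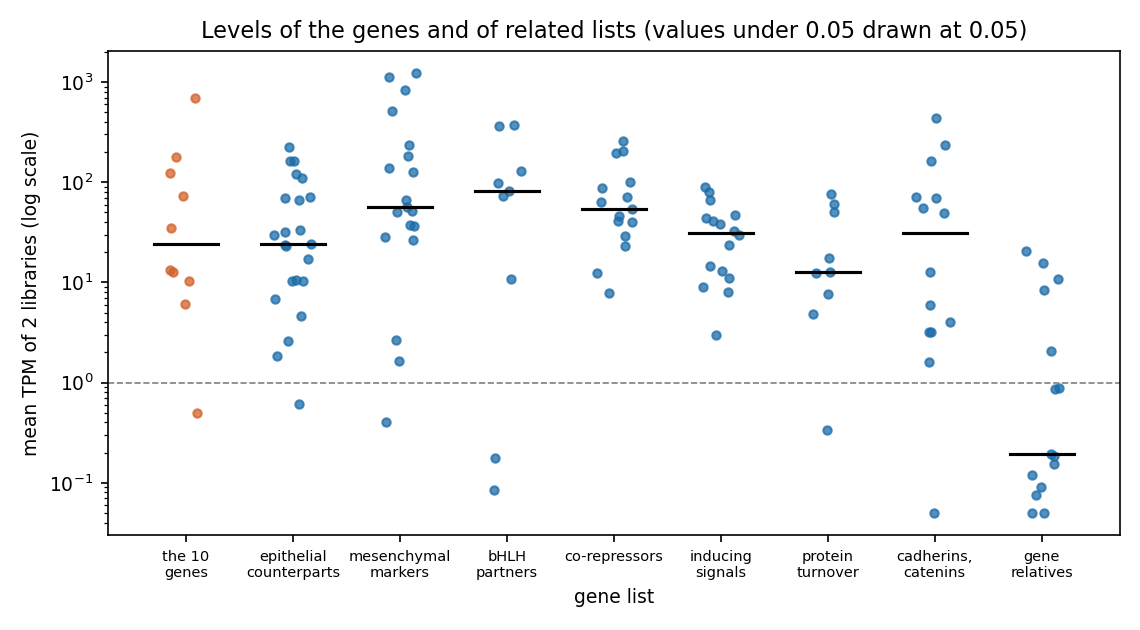
Mean TPM over the 2 libraries, on a log axis, of the 10 genes (first column) and of the genes of 8 lists of related genes, with 1 point for each gene, a line at each median and a dashed line at 1 TPM. The epithelial and mesenchymal genes lie mostly above the detection threshold, and most of the gene relatives lie below it.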

How the data were processed

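Total RNA was measured in 2 libraries of lung at 14.5 days, extracted with the mirVana kit and with a Smart-seq protocol document linked, per the labels. The deposited tables give, per gene and transcript, the expected count, TPM and the percent of a gene's TPM in each transcript, with posterior means and SDs, per the file headers. The assembly was mm10 with GENCODE M4, per the deposited read-me files; no quantifier or setting is given in the sources used here. TPM sums include spike-in RNA, which held 4.94% and 3.96% of the counts.

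Names, coordinates and transcript types came from GENCODE M21 on GRCm38 by unversioned identifier (42462 of 43346 genes matched). Expected counts were rounded, scaled by TMM (edgeR 4.0.16) and compared by an exact binomial test (SciPy 1.17.1), with Benjamini-Hochberg adjustment over 14870 genes. Intervals are 95% and, like a count of 0, which allows 3 counts, cover counting error only. DESeq2 1.42.0 size factors, other scalings, posterior means, filters and edgeR's exact test were alternatives. The test was run on simulated counts with known folds that held counting error only. That simulation cannot show how the test behaves where libraries differ by more than counting error. The members and the lists were chosen with earlier results of these data known. Named genes were the 10 members and genes overlapping a member. From the lists they were the 3 highest of each related list, the 2 highest of each marker list, and genes called in either. Cdh1, the counterpart of Cdh2, falls outside this rule. So do Nkx2-1, Lrrn4, Bnc1, Ryr2, Myod1, Myog, Myf5 and Pax7, named after their values were seen.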

Additional observations from a re-analysis of the deposited data

How the results depend on the processing

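The count of 9 detected genes stayed 9 under all 6 alternatives, which include TPM thresholds of 0.5 and 5 and leaving out each replicate. The lowest detected gene, Prrx1, was at 6.04 and 6.2 TPM and Twist1 at 0.71 and 0.29 TPM, so these settings left little room for change. The 0 genes called at 2-fold stayed 0 under the alternatives of scaling, filter, test, posterior means and a 1.5-fold threshold, and became 4 at any fold. The 4 genes with an adjusted p under 0.05 at any fold became 8 with spike-in scaling and 0 with edgeR's exact test. Of all genes tested, 22.5% passed at any fold on the main scaling and 0.780% by edgeR. That share was not counted with spike-in scaling, where the median log2 ratio of all genes tested was 0.34, so the 8 cannot be read as a trait of the panel. The edgeR count is no independent check, because its spread was estimated from the same 2 libraries. Signs turned in 12 of 65 log2 ratios. Spike-in scaling gave 0.32 for Twist2, 0.34 for Zeb1, 0.24 for Zeb2, 0.0128 for Prrx1, 0.28 for Vim and 0.33 for Cdh2. The ratio of the deposited TPM, chosen after seeing the data, gave 0.0465 for Twist2, 0.00763 for Zeb1, 0.0377 for Prrx1, 0.0256 for Vim and 0.0522 for Cdh2; for single-transcript Snai1 it exceeded the count ratio by 0.06. Total mouse counts gave 0.0023 for Zeb1. Over all genes, spike-in scaling called 290 genes, 70.0% of them higher, against 169 and 31.4%; no filter called 538 of 24179, and posterior means called 147. The level on the leading coding transcript, also chosen after seeing the data, was 1.57-fold lower for Vim and 1.51-fold lower for Zeb1. On that length the mean Zeb1 share of the zeb pair went from 15.3% to 11.2%, while the Snai1 share of the snail pair stayed 41.3%. TPM rescaled to mouse genes outside the mitochondrial genome raised every mean level, to 143 for Snai1, 204 for Snai2 and 789 for Vim. No paired analysis was possible because both libraries belong to 1 group. Depth limits Twist1, at 24 and 10 counts.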

Other observations

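Relatives of the factors were mostly low, with 5 of 15 detected. They were led by Scx (22.7 and 18.95 TPM), a tendon factor of the Twist class, then Zfhx3 (15.0 and 16.61 TPM) and Adnp (9.22 and 12.37 TPM). At any fold 3 were higher and 1 lower, and 0 were called. For this list and those below, the shares of all genes tested were 11.0% higher and 11.5% lower at any fold, and 1.14% called. Of protein-coding genes, 58.8% were detected.

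Of 10 relatives and linkers of vimentin, 7 were detected, led by the lamin genes Lmna (55.32 and 56.38 TPM) and Lmnb1 (49.03 and 54.3 TPM) and by Des, the muscle filament gene (36.08 and 34.37 TPM). Prph, a filament gene of peripheral neurons, was called lower in replicate 2, at 1.42 and 0.72 TPM (2.03-fold, adjusted p = 0.0147 by the exact binomial test). Of 14 cadherin and catenin genes, 12 were detected, with 1 higher and 3 lower at any fold and 0 called. Ctnnb1 (434.52 and 447.35 TPM), Cdh11 (225.89 and 241.34 TPM) and Ctnna1 (163.07 and 162.22 TPM) led them. Of 9 genes of the turnover of these factors, 8 were detected, led by Csnk2a1 (74.87 and 76.67 TPM), Fbxl5 (62.09 and 60.07 TPM) and Gsk3b (49.08 and 50.78 TPM), with 2 higher and 1 lower at any fold.

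Among other marker lists, endothelial genes summed to 552 and 596 TPM, led by Egfl7 and Cldn5. Epithelial markers summed to 2725 and 2777 TPM and smooth muscle markers, led by Acta2 and Actg2, to 1096 and 1117 TPM. Mesothelial markers, led by Krt19 and Upk3b, summed to 118 and 117 TPM, of which Krt19, also an epithelial gene, held 69.25 and 74.44 TPM. The median log2 ratio of that list was −0.36, with 4 of 6 lower at any fold. Erythroid genes, led by Hbb-bs and Hba-a1, summed to 7882 and 8118 TPM. Neural crest and glia markers, led by Erbb3 and Ret, had 4 of 9 detected, and cartilage markers, led by Sox9 and Col2a1, had 4 of 6. No gene of the endothelial, epithelial, smooth muscle, erythroid, neural crest or cartilage lists was called.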
